A study of Saccharomyces cerevisiae with 22 samples.

Results

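The transcription factor Gal4, fused to a fragment of the silencing protein Sir4, was profiled by calling cards in 2 settings, and the insertions recovered in each were set against one another. In the pooled setting Gal4 carried its own Ty5 barcode and was grown among 7 other barcoded fusions (Kar4, Lee1, Rgm1, Rpi1, Sef1, Sfg1 and Yrm1), in 2 multiplex replicates. In the plasmid setting, 1 library came from cells that overexpressed the Gal4 fusion from a plasmid. The libraries were chosen by their labels, and they are 3 of the 22 libraries of the series. A library of the same diploid without any Sir4 served as the background. All of these groups share the diploid strain, MATa/MATα, in which both copies of HIS3, LEU2, URA3, TRP1 and SIR4 are mutant (his3∆1, leu2∆0, ura3∆0, trp1::Hyg and sir4::KanMX) and in which met15∆0 and lys2∆0 are each paired with the intact gene. Insertions were collected from His+ colonies resistant to 5-fluoroorotic acid. The labels name complete synthetic medium with 2% glucose or galactose and do not say which library had which sugar, so the sugar and the setting cannot be told apart. The labels do not say how the fusion was expressed in the pool.

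A calling card is an insertion of the retrotransposon Ty5. Its integrase is tethered by Sir4, so a factor that carries a piece of Sir4 draws insertions to the DNA around its own binding sites. Gal4 is the zinc-cluster activator of the genes for galactose use, which include the galactokinase GAL1, the epimerase GAL10, the uridylyltransferase GAL7 and the permease GAL2. Its activity is held down by Gal80, Gal3 relieves that block when galactose is present, and glucose represses the pathway.

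Sites were counted rather than reads, and a site is a chromosome, a position and a direction of insertion with at least 1 read. The pooled libraries held 16116 and 13886 sites from 658648 and 388075 reads, and the plasmid library held 13383 sites from 588414 reads, within a range of 4755 to 79573 sites over the series. The Sir4-free library held 79573. The median number of reads behind a site was 6 and 4 in the pooled libraries and 11 in the plasmid library. A share is the percentage of a library's sites that lie in a 1-kb bin, which can hold at most 2000 distinct sites when both directions are listed. The plasmid library lists 0 positions in both directions, so as listed its bins can hold at most 1000. Coordinates are as deposited, in a build that the labels do not name, and bins carry the names of genes that start in or near them in the R64 annotation.

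The files list positions in 2 ways. In the pooled and Sir4-free libraries, minus-strand positions matched plus-strand positions best at an offset of 14 bp, and some positions were listed in both directions (1386 and 1058 positions in the pooled libraries). In the plasmid library the best offset was 11 bp and 0 positions were listed in both directions. The minus-strand positions thus differed by 3 bp between the settings, and sites were also counted without direction as an alternative.

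Most insertions of both settings fell at the same targets, and the pooled libraries had more of their sites there. Bins were taken as common targets when their share was above that of the Sir4-free library in the plasmid library and in both pooled libraries (two-sided Fisher's exact test, Benjamini-Hochberg adjusted p under 0.05). There were 114 such bins in 86 separate stretches. They held 67.2% (95% Clopper-Pearson interval 66.5 to 67.9) and 69.0% (68.2 to 69.8) of the pooled sites, against 54.2% (53.4 to 55.1) of the plasmid sites. In the Sir4-free library the same bins held 3.94%. The pooled mean, 68.1% ± 1.26 (SD, n = 2), was 1.26 times the plasmid share. The intervals of the 2 pooled libraries did not overlap each other, and both lay above that of the plasmid library, by a larger gap. Such intervals cover counting error only, and the plasmid setting has no replicate. A permutation of 2 libraries against 1 cannot give a small p, so the share was not tested. When positions were counted without direction the ratio was 1.20.

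The gap lay mainly in the strongest targets. The 10 target bins with most plasmid sites held 25.7% and 26.0% of the pooled sites, against 15.6% of the plasmid sites, a ratio of 1.66. These bins made up 10.3 of the 13.9 percentage points between the settings. Counted without direction, the log2 folds of GTO3, GAL10/GAL1 and GAL2 among them fell from 0.79, 1.49 and 0.80 to 0.53, 1.11 and 0.58. The part of the position listing in this gap was not tested. For the next 20 target bins the ratio was 1.10, and for the other 84 it was 1.09. In those 84 bins the median log2 fold was -0.12, with 5 called larger and 5 smaller. The split depends on the ranking. With the bins ranked by mean share over the settings, the ratios of the first 10, the next 20 and the other 84 were 1.85, 1.29 and 0.854. Each library's own 10 leading bins held 27.9% and 28.6% of the pooled sites, against 15.6% of the plasmid sites. The plasmid library was spread more widely, as the plot of cumulative shares shows. Insertions occupied 2150 and 1885 bins in the pooled libraries and 3296 bins in the plasmid library, and bins with a single site numbered 1270 and 1098 in the pooled libraries and 2149 in the plasmid library.

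**Figure D1:**
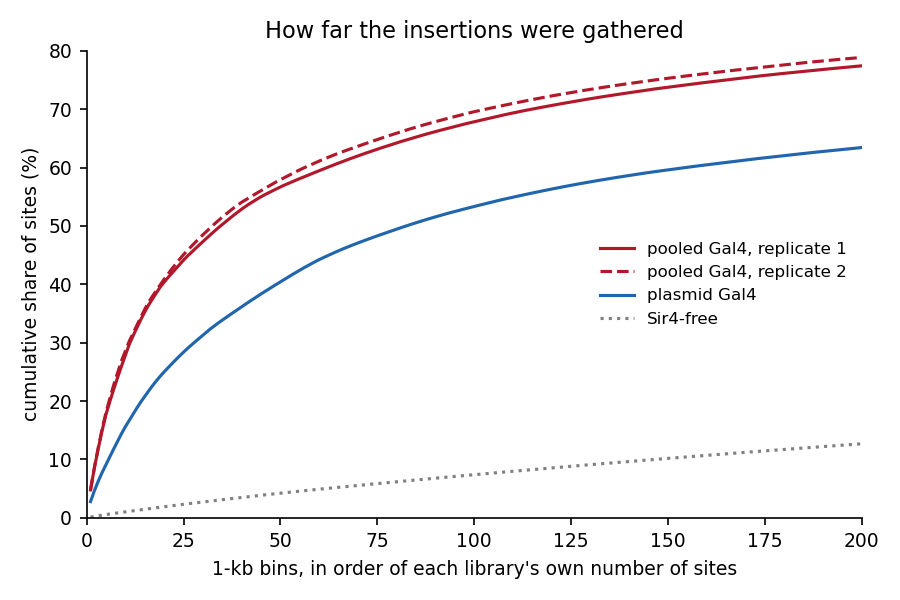
Cumulative share of insertion sites (%, vertical axis) over the first 200 1-kb bins, taken in the order of each library's own number of sites (horizontal axis), for both pooled Gal4 libraries, the plasmid Gal4 library and the Sir4-free library. After 50 bins the pooled libraries had reached 56.7% and 57.9% and the plasmid library 40.4%.

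Each bin with at least 5 sites over the 3 Gal4 libraries was then tested for a difference in share with edgeR's quasi-likelihood test, with the spread estimated from the 8 fusions that have replicates. The single plasmid library was assumed to vary as they do. The p-values set each difference against the spread between replicates of the pooled fusions, to which the plasmid library adds nothing. Of 767 bins, 21 took a larger share in the pool (2.74%) and 10 a smaller share (1.3%), at an adjusted p under 0.05. At an unadjusted p under 0.05, 63 were larger and 66 smaller. DESeq2 called 12 larger (2.09%) and 2 smaller (0.349%) of the bins to which it gave an adjusted p, and Fisher's exact test in both replicates called 22 larger (2.87%) and 8 smaller (1.04%). TMM scaling, which shifted the median log2 fold of all bins to 0.07, called 38 larger and 7 smaller. In all 31 called bins both pooled replicates lay on the same side of the plasmid share. Among the 114 common targets 11 were larger and 7 smaller, and among the other bins 10 were larger and 3 smaller. The median log2 fold was -0.16 over all tested bins and -0.08 over the targets, and the fold was positive in 344 of the 767 bins and in 52 of the 114 targets. Between the 2 pooled replicates, Fisher's exact test called 1 bin (0.13%), the bin of YEL008W and MIT1, a regulator of filamentous growth. It held 46 and 11 pooled sites and 8 plasmid sites, and 42 bins (5.48%) passed an unadjusted p of 0.05 between the replicates. As a description over the 767 bins, the shares of the 2 pooled libraries had a Pearson correlation of 0.993, and those of each pooled library with the plasmid library 0.900 and 0.894. These points share libraries, and the few strongest bins weigh most.

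**Figure D2:**
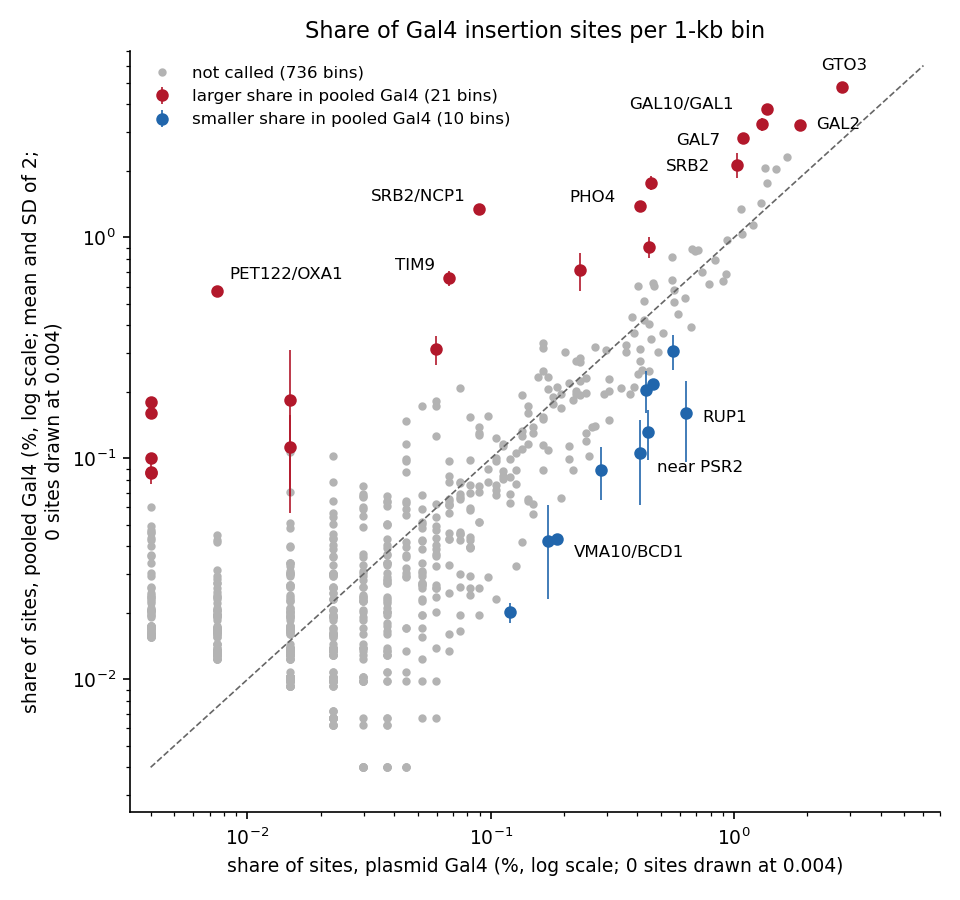
Share of insertion sites per 1-kb bin in the pooled Gal4 libraries (%, vertical axis, log scale, mean with SD of 2 for called bins) against the plasmid Gal4 library (%, horizontal axis, log scale) for 767 bins, where the dashed line marks equal shares. The 21 bins with a larger pooled share lie above the line, among them the GAL bins and GTO3 at the top right, and the 10 with a smaller share lie below it.

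The 21 bins with a larger pooled share together held 28.1% and 29.0% of the pooled sites, against 11.2% (10.7 to 11.8) of the plasmid sites. The 10 bins with a smaller one held 1.38% and 1.26% of the pooled sites, against 3.71% (3.39 to 4.04) of the plasmid sites. The remaining 96 target bins, which were not called, held 40.4% and 41.3% of the pooled sites, against 40.2% (39.3 to 41.0) of the plasmid sites. These sums follow from the calls and are given as a description.

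The galactose structural genes were among the bins with a larger pooled share. The divergent promoter bin of GAL10 and GAL1 (chromosome 2, 278001 to 279000) held 611 and 533 pooled sites and 182 plasmid sites. Its share was 3.81% ± 0.0333 in the pool (SD, n = 2) and 1.36% (1.17 to 1.57) on the plasmid, a log2 fold of 1.49 (SE 0.24, edgeR adjusted p 2.95e-07). The pooled replicates differed from each other by far less than from the plasmid library. The GAL7 bin (chromosome 2, 275001 to 276000) held 444 and 397 pooled sites and 145 plasmid sites, with a log2 fold of 1.37 (SE 0.24, edgeR adjusted p 1.49e-06). The GAL2 bin (chromosome 12, 289001 to 290000) held 531 and 440 pooled sites and 249 plasmid sites. Its log2 fold was 0.80 (SE 0.23, edgeR adjusted p 0.0174) and its shares of 3.29% and 3.17% in the pool lay above 1.86% (1.64 to 2.10) on the plasmid. When positions were counted without direction, the log2 folds fell to 1.11 at GAL10/GAL1, 1.02 at GAL7 and 0.58 at GAL2. GAL10/GAL1 and GAL7 stayed called (edgeR adjusted p 2.73e-05 and 1.69e-04), and the GAL2 call was lost (edgeR adjusted p 0.0838). DESeq2 gave an adjusted p of 0.142 for GAL10/GAL1 and 0.313 for GAL2. The bin of PGM2, a phosphoglucomutase that links galactose to glycolysis, held 35 and 46 pooled sites and 31 plasmid sites, which was not called (log2 fold 0.22, edgeR adjusted p 0.866). Of the 4 bins of the galactose enzymes and permease 3 were thus called larger, against 2.74% of all tested bins, and their median log2 fold was 1.08. Among the 10 bins with the largest mean share, which include these 3, 6 were called larger.

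At GAL10/GAL1 and GAL7 the reads differed more than the sites. The GAL10/GAL1 bin took 20.1% and 14.8% of all reads in the pooled libraries, against 2.87% in the plasmid library. The GAL7 bin took 16.2% and 20.4% of the pooled reads, against 2.13% of the plasmid reads. At GAL2 the shares of reads were 6.95% and 6.02% in the pool, against 6.87% on the plasmid. The GAL1, GAL10 and GAL7 bins thus stood apart in reads, while the values at GAL2 lay close together. Reads are given as a description and were not tested.

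The bins of the pathway's regulators were less occupied. Of the 6 tested, edgeR called 0 in either direction, and 1 was below an unadjusted p of 0.05, with a smaller pooled share. Over all tested bins 4.04% were called and 16.8% were below an unadjusted p of 0.05, so these counts are near the background. DESeq2 and the Fisher test in both replicates also called 0. The median log2 fold of these bins was -0.54. The GAL3 bin held 53 and 31 pooled sites and 55 plasmid sites (log2 fold -0.56, edgeR adjusted p 0.326). The bin of MTH1, a regulator of the hexose transporter genes, held 10 and 3 pooled sites and 18 plasmid sites (log2 fold -1.62, edgeR adjusted p 0.102), and that of GAL80 held 25 and 23 pooled sites and 19 plasmid sites (log2 fold 0.17). The bin of the Pho85 cyclin gene PCL10 held 16 and 18 pooled sites and 22 plasmid sites (log2 fold -0.53). Both pooled shares of GAL80 lay inside the plasmid interval, and both pooled shares at GAL3, MTH1 and PCL10 lay below the plasmid share. The first replicate at GAL3 and the second at PCL10 were still inside the plasmid interval. Only at MTH1 did both pooled shares fall below that interval. They rest on 10 and 3 sites, whose own counting error is not in the plasmid interval, and the bin was not called. The bin upstream of GAL4 itself had 0 sites in all 3 libraries, which at a limit of 3 counts allows a share of up to 0.0224% in the plasmid library. The glucose sensor SNF3 and the Mediator gene GAL11 had under 5 sites.

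Among 3 other genes proposed as Gal4 targets, 1 was called, beside 4.04% of all tested bins. The bin of the aldo-keto reductase GCY1 held 39 and 25 pooled sites and 52 plasmid sites (log2 fold -0.86, edgeR adjusted p 0.0798), and it passed as smaller with the replicate block (edgeR adjusted p 0.0478) and in bins with at least 10 sites (edgeR adjusted p 0.0349). The bin upstream of its relative YPR1, shared with MOR1 and KEI1, held 3 and 3 pooled sites and 16 plasmid sites, and it was called smaller (log2 fold -2.54, SE 0.83, edgeR adjusted p 0.0232). That call was lost without either pooled replicate (edgeR adjusted p 0.137 and 0.0874). The next bin, also named for YPR1 and a common target, held 32 and 27 pooled sites and 50 plasmid sites and was not called (log2 fold -0.92, edgeR adjusted p 0.102). The bin of the uracil permease FUR4, next to the GAL cluster, held 41 and 41 pooled sites and 30 plasmid sites (log2 fold 0.29, edgeR adjusted p 0.827). The full Gal4 list of 11 genes lay in 10 bins, of which 3 were larger and 0 smaller by edgeR. Over all tested bins 2.74% were larger and 1.3% smaller, so 0 smaller calls are no result about the list. The 3 larger bins are the GAL bins already counted above. At an unadjusted p under 0.05, 3 were larger and 2 smaller, beside 16.8% of all tested bins in either direction. DESeq2 called 1 larger and 0 smaller, and the Fisher test in both replicates called 3 larger and 0 smaller. The median log2 fold of the list was 0.20, against -0.16 over all tested bins.

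The sites at some of the less occupied genes had few reads in the pool. The median site at GAL3 had 1 read in each pooled library, against 12 in the plasmid library. At GCY1 it had 2 reads in each pooled library, against 14.5 in the plasmid library, and at FUR4 it had 5 and 2 reads in the pool, against 17.5 on the plasmid. At PGM2, MTH1, PCL10 and GAL80 the pooled medians were 6 and 5, 3.5 and 5, 2 and 6, and 4 and 3 reads. Over all sites they were 6 and 4. The GAL10/GAL1 bin had 16 and 8 reads per median site in the pool, against 24.5 on the plasmid. With only sites of at least 5 reads, GAL3 and GCY1 both passed as smaller in the pool, with log2 folds of -2.49 and -2.94 (edgeR adjusted p 1.88e-05 and 1.47e-07). That filter lowered the median log2 fold of all its tested bins to -0.51 and called 43 of 408 bins smaller. It kept 56.7% and 47.5% of the pooled sites, against 65.1% of the plasmid sites.

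The lists outside the galactose pathway had few tested bins, and at the 4.04% called over all bins 0 calls in them are no result about these lists. Of 10 hexose transporter genes, 6 had enough sites to be tested and edgeR called 0, with 1 below an unadjusted p of 0.05. Of 16 glycolytic genes 6 were tested and edgeR called 0, again with 1 below an unadjusted p of 0.05. DESeq2, which gave 3 of the hexose transporter bins no adjusted p, and the Fisher test in both replicates called 0 in each list. Among 7 G1 cyclin and regulator genes 3 were tested and edgeR called 0, with 0 below an unadjusted p of 0.05, and DESeq2 and the Fisher test also called 0. Of these the G1 cyclin gene CLN3 had the most insertions. Its bin (chromosome 1, 68001 to 69000) held 300 and 232 pooled sites and 182 plasmid sites, a log2 fold of 0.38 (SE 0.23, edgeR adjusted p 0.417).

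The strongest bin of every Gal4 library was that of GTO3, a glutathione transferase of the omega class. It held 772 and 669 pooled sites and 373 plasmid sites, with shares of 4.79% and 4.82% in the pool and 2.79% (2.51 to 3.08) on the plasmid. The log2 fold was 0.79 (SE 0.24, edgeR adjusted p 0.0399). The call was lost without the second pooled replicate (adjusted p 0.0602), with a replicate block (adjusted p 0.0552), with DESeq2 (adjusted p 0.578) and when positions were counted without direction (adjusted p 0.173). Its reads made up 9.04% and 10.0% of the pooled reads, against 8.23% of the plasmid reads. Strong bins outside the Gal4 list included those of PIH1, a subunit of the R2TP chaperone complex, and SRB2, a Mediator subunit. PIH1 and NEL1 shared a bin with 500 and 474 pooled sites and 175 plasmid sites (log2 fold 1.32, SE 0.23, edgeR adjusted p 2.19e-06). The SRB2 bin held 311 and 322 pooled sites and 137 plasmid sites (log2 fold 1.05, SE 0.23, edgeR adjusted p 1.43e-04).

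Several of the 10 bins with the largest mean shares were not called. The bin of SRP40 and the peptide transporter PTR2 held 361 and 334 pooled sites and 221 plasmid sites (log2 fold 0.49, edgeR adjusted p 0.204). That of SNA2 and RBA50 held 325 and 288 pooled sites and 198 plasmid sites (log2 fold 0.47, edgeR adjusted p 0.292). The bin between WHI5, a repressor of entry into the cell cycle, and LPX1 held 336 and 282 pooled sites and 179 plasmid sites (log2 fold 0.62, edgeR adjusted p 0.0995). In each of these bins both pooled shares were above the plasmid share, and Fisher's exact test in both replicates called all 3 larger (larger adjusted p of the replicates 0.00726, 0.0121 and 3.81e-04). With TMM scaling SRP40/PTR2 and WHI5/LPX1 passed (edgeR adjusted p 0.0357 and 0.0100), and WHI5/LPX1 passed under 4 further alternatives.

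**Figure D3:**
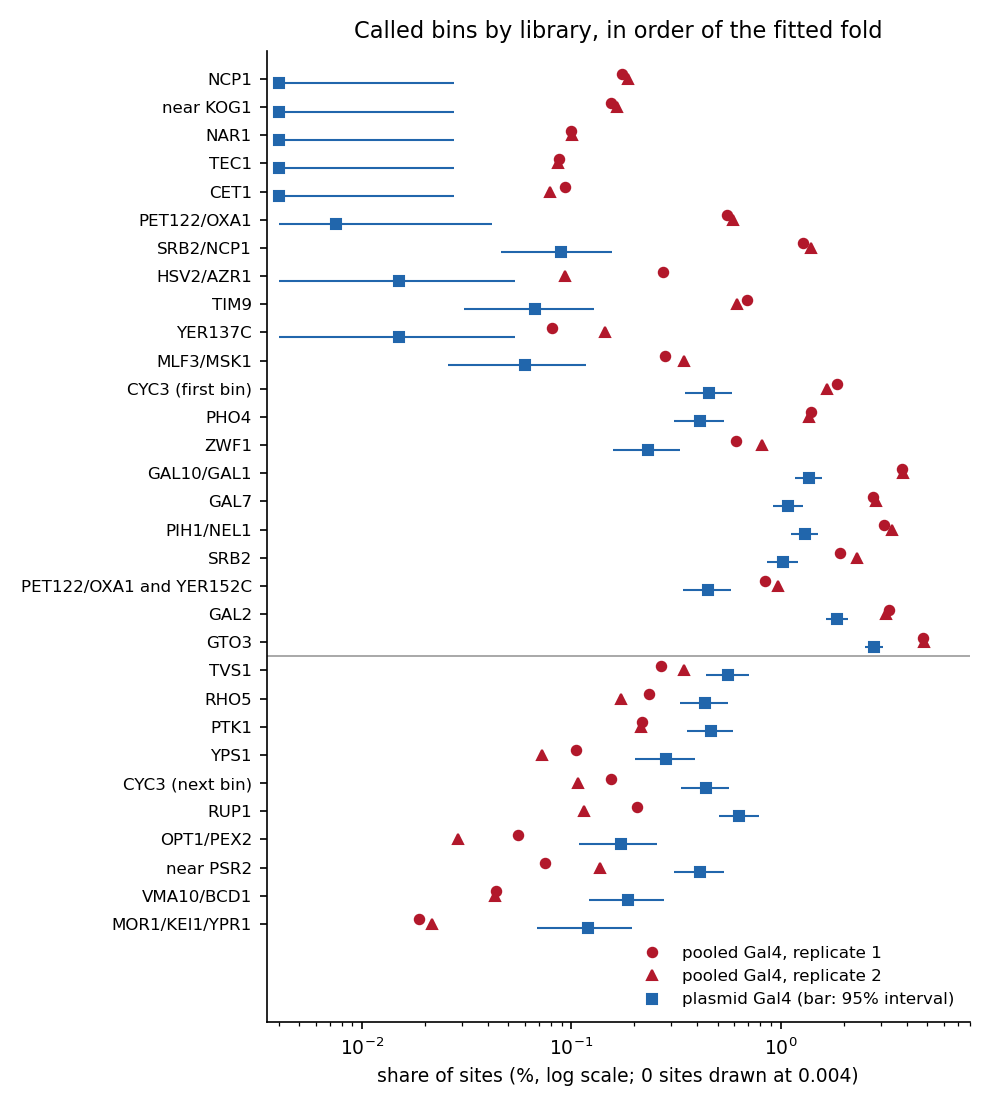
Share of insertion sites (%, horizontal axis, log scale) in each of the 31 called bins for pooled Gal4 replicates 1 and 2 and for plasmid Gal4, whose bar is the 95% Clopper-Pearson interval. Above the grey line are the 21 bins with a larger pooled share, in 5 of which the plasmid library had 0 sites, and below it the 10 bins with a smaller one.

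Some of the largest folds lay in bins next to strong targets. The bin that follows SRB2, between SRB2 and the cytochrome P450 reductase gene NCP1 (chromosome 8, 190001 to 191000), held 207 and 194 pooled sites and 12 plasmid sites. Its shares were 1.28% and 1.40% in the pool, against 0.0897% (0.0463 to 0.157) on the plasmid, and its log2 fold of 3.89 (SE 0.48) had the smallest p of all bins (edgeR adjusted p 9.82e-28). The next bin, at NCP1, held 28 and 26 pooled sites and 0 plasmid sites, a share at least 8.05-fold higher in the pool when the plasmid library is set at a floor of 3 counts. On chromosome 5 the bin of PET122, an activator of mitochondrial translation, and OXA1, a mitochondrial insertase, held 89 and 82 pooled sites and 1 plasmid site. The ratio of the summed pooled sites to that single site was 76.3 (95% conditional exact interval 13.5 to 3030, counting error only). The bin just before it, which also holds the start of YER152C, had 135 and 135 pooled sites and 60 plasmid sites (log2 fold 1.01, SE 0.26, edgeR adjusted p 0.00174).

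Neighbouring bins could also move in opposite directions. The CYC3 bin next to CLN3 (chromosome 1, 69001 to 70000), at the gene for cytochrome c heme lyase, held 299 and 232 pooled sites and 61 plasmid sites (log2 fold 1.95, SE 0.27, edgeR adjusted p 4.31e-12). The following 1-kb bin, also nearest to CYC3, held 25 and 15 pooled sites and 59 plasmid sites (log2 fold -1.72, SE 0.36, edgeR adjusted p 5.56e-05). On chromosome 8 the bin before SRB2, that of the vacuolar ATPase gene VMA10 and of BCD1, held 7 and 6 pooled sites and 25 plasmid sites (log2 fold -2.09, SE 0.61, edgeR adjusted p 0.0116). The 2 pooled replicates lay on the same side in each of these bins.

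Further bins with a larger pooled share lay at regulators and enzymes. The bin of PHO4, the transcription factor of phosphate starvation, and QCR6, a subunit of respiratory complex III, held 226 and 189 pooled sites and 55 plasmid sites (log2 fold 1.75, SE 0.32, edgeR adjusted p 1.41e-06). The bin of ZWF1, glucose-6-phosphate dehydrogenase, held 99 and 113 pooled sites and 31 plasmid sites (log2 fold 1.61, SE 0.36, edgeR adjusted p 6.20e-05), and NAR1 in the bin beside it held 16 and 14 pooled sites and 0 plasmid sites. A bin near KOG1, a subunit of TORC1, held 25 and 23 pooled sites and 0 plasmid sites, at least 7.15-fold higher in the pool at the same floor. At NAR1 the share was at least 4.46-fold higher. The MLF3/MSK1 bin held 45 and 48 pooled sites and 8 plasmid sites (log2 fold 2.36, SE 0.59, edgeR adjusted p 8.31e-05).

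Some of the larger bins had features that set them apart. In the TIM9 bin (chromosome 5, 117001 to 118000), beside URA3, which is deleted in all of these strains, all 111 and 86 pooled sites pointed in the plus direction, while the plasmid library had 8 plus and 1 minus sites and the Sir4-free library 15 plus and 11 minus sites. Its log2 fold was 3.27 (SE 0.54, edgeR adjusted p 3.82e-14). In the bin of the mRNA capping gene CET1 all 15 and 11 pooled sites were in the minus direction and the plasmid library had 0. The other fusions of the pools had 138 sites in the TIM9 bin (0.0552% of theirs), against 9 sites (0.0261%) in the Leu3 and Gcn4 plasmid libraries. The bin of HSV2 and the azole-resistance transporter gene AZR1 held 44 and 13 pooled sites and 2 plasmid sites. The ratio of the summed pooled sites to the plasmid sites, per library size, was 12.7 (95% conditional exact interval 3.36 to 108). It is a leading bin of Yrm1 in the same pools, and the median site there had 1 read in each pooled Gal4 library. Its fitted log2 fold was -0.25 when only sites with at least 5 reads were counted, and the call was lost without the first pooled replicate (adjusted p 0.219). The part of these features in the calls was not tested. The bin of TEC1, an activator of filamentous growth, held 14 and 12 pooled sites and 0 plasmid sites, but also 64 sites in the Sir4-free library. The YER137C bin held 13 and 20 pooled sites and 2 plasmid sites, a ratio of 7.36 (1.88 to 63.3), and the call was lost without the second replicate (adjusted p 0.167).

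The bins with a smaller pooled share were mostly modest targets. The RUP1 bin, at the gene of a protein that binds the ubiquitin ligase Rsp5 (chromosome 15, 585001 to 586000), held 33 and 16 pooled sites and 85 plasmid sites, against 5 in the Sir4-free library. Its log2 fold was -1.96 (SE 0.33, edgeR adjusted p 1.89e-07). A bin near PSR2, a plasma-membrane phosphatase gene, held 12 and 19 pooled sites and 55 plasmid sites (log2 fold -1.98, SE 0.40, edgeR adjusted p 2.15e-05). In both bins either pooled share was below the plasmid share, 0.205% and 0.115% in the pool against 0.635% on the plasmid at RUP1. The other bins with a smaller share were those of the kinase gene PTK1 (35 and 30 pooled sites, 62 plasmid sites), the aspartic protease gene YPS1 (17 and 10 pooled sites, 38 plasmid sites), the GTPase gene RHO5 (38 and 24 pooled sites, 58 plasmid sites), OPT1/PEX2 (9 and 4 pooled sites, 23 plasmid sites) and TVS1 (43 and 48 pooled sites, 75 plasmid sites). Without the first replicate the calls at TVS1, VMA10/BCD1 and MOR1/KEI1/YPR1 were lost, and without the second those at VMA10/BCD1, MOR1/KEI1/YPR1, OPT1/PEX2, YPS1 and RHO5. With the pool number as a replicate block the same test called 24 bins larger and 16 smaller.

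The fit was also repeated with each library scaled to its sites in the common target bins. This lowers all folds by about the same amount, and the median log2 fold shifted to -0.47 over all bins and -0.41 over the targets. On this scale 18 bins were larger (2.35%) and 40 smaller (5.22%), and within the 114 targets 8 were larger and 24 smaller. The bins of GTO3 (adjusted p 0.310), GAL2 (adjusted p 0.250) and YER152C/PET122/OXA1 (adjusted p 0.0673) were not called on this scale. GAL10/GAL1 was, with a log2 fold of 1.16 (edgeR adjusted p 2.25e-04), and so was GAL7, with 1.04 (edgeR adjusted p 8.21e-04). GAL3 passed as smaller (log2 fold -0.88, edgeR adjusted p 0.0465), as did GCY1 (log2 fold -1.19, edgeR adjusted p 0.00415) and MTH1 (log2 fold -1.95, edgeR adjusted p 0.0214). These 3 bins were not called on the unscaled shares, and they passed here after the shift that all bins share.

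Within the bins the insertions were laid out in 100-bp windows, a scale chosen after the data had been seen. Of 1156 windows with at least 5 sites, 68 took a larger pooled share (5.88%) and 10 a smaller one (0.865%) by edgeR, and 58 of the 68 lay in bins called larger. Of 256 windows with at least 10 sites in both pooled libraries, 16 had 0 plasmid sites. Of 292 windows with at least 10 plasmid sites, 0 had under 2 sites in both pooled libraries. That count asks for near absence from 2 libraries at once, so the 2 counts are not alike. The RUP1 windows from 585501 and 585601 and the YPS1 window from 387501 held 18, 16 and 16 plasmid sites. There the first pooled library held 5, 6 and 5 sites and the second 0. With fewer than 10 plasmid sites, windows without any pooled site did occur. Of the 10 windows called smaller, 3 had 0 sites in both pooled libraries, in the bins of MOR1/KEI1/YPR1, OPT1/PEX2 and MNN4. The plasmid library held 8, 7 and 6 sites there.

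Several windows with at least 10 sites in both pooled libraries and 0 plasmid sites lay in the stretch from SRB2 to NCP1. In the 5 windows from 190501 to 191000 on chromosome 8 the first pooled library held 39, 50, 41, 28 and 37 sites and the second 34, 49, 41, 24 and 38, against 1, 1, 0, 0 and 0 in the plasmid library. The pooled insertions there lay in both directions, with 96 plus and 111 minus sites over the bin in the first replicate. At the other end of the stretch, in the first 100 bp of the SRB2 bin, the order was the opposite, with 13 and 10 pooled sites and 31 plasmid sites (log2 fold -1.59, edgeR adjusted p 0.00757). In the most occupied SRB2 window the pooled libraries held 78 and 79 sites and the plasmid library 25.

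A like pattern ran from CLN3 into CYC3. In the first 4 windows of the CLN3 bin the pooled libraries held 17, 21, 39 and 30 sites in the first replicate and 13, 11, 22 and 8 in the second, against 18, 19, 33 and 36 plasmid sites. Across the bin border, in the 3 windows from 68801 to 69100, the pooled libraries held 69, 60 and 59 sites and 64, 60 and 56 sites, against 10, 4 and 3 plasmid sites, each with an edgeR adjusted p of 3.56e-07 or lower. The median insertion in the CLN3 bin lay 765 and 813 bp from the start of the bin in the pool and 336 bp in the plasmid library. At PHO4, 2 neighbouring windows held 25 and 50 sites in the first pooled replicate and 23 and 45 in the second, against 0 and 2 plasmid sites. The last 2 windows of the same bin held 11 and 15 sites in the first replicate and 11 and 7 in the second, against 13 and 10 plasmid sites. In the PHO4 windows from 225301 and 225401 the other fusions of the pools had 190 and 250 sites and the Leu3 plasmid library had 28 and 18. This is a leading bin of Sef1 in the same pools. In the 5 windows from 190501 to 191000 the other fusions had 2, 2, 3, 4 and 5 sites. The Leu3 plasmid library had 1, 0, 0, 0 and 1 there. Why some windows lacked plasmid Gal4 sites was not tested.

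**Figure D4:**
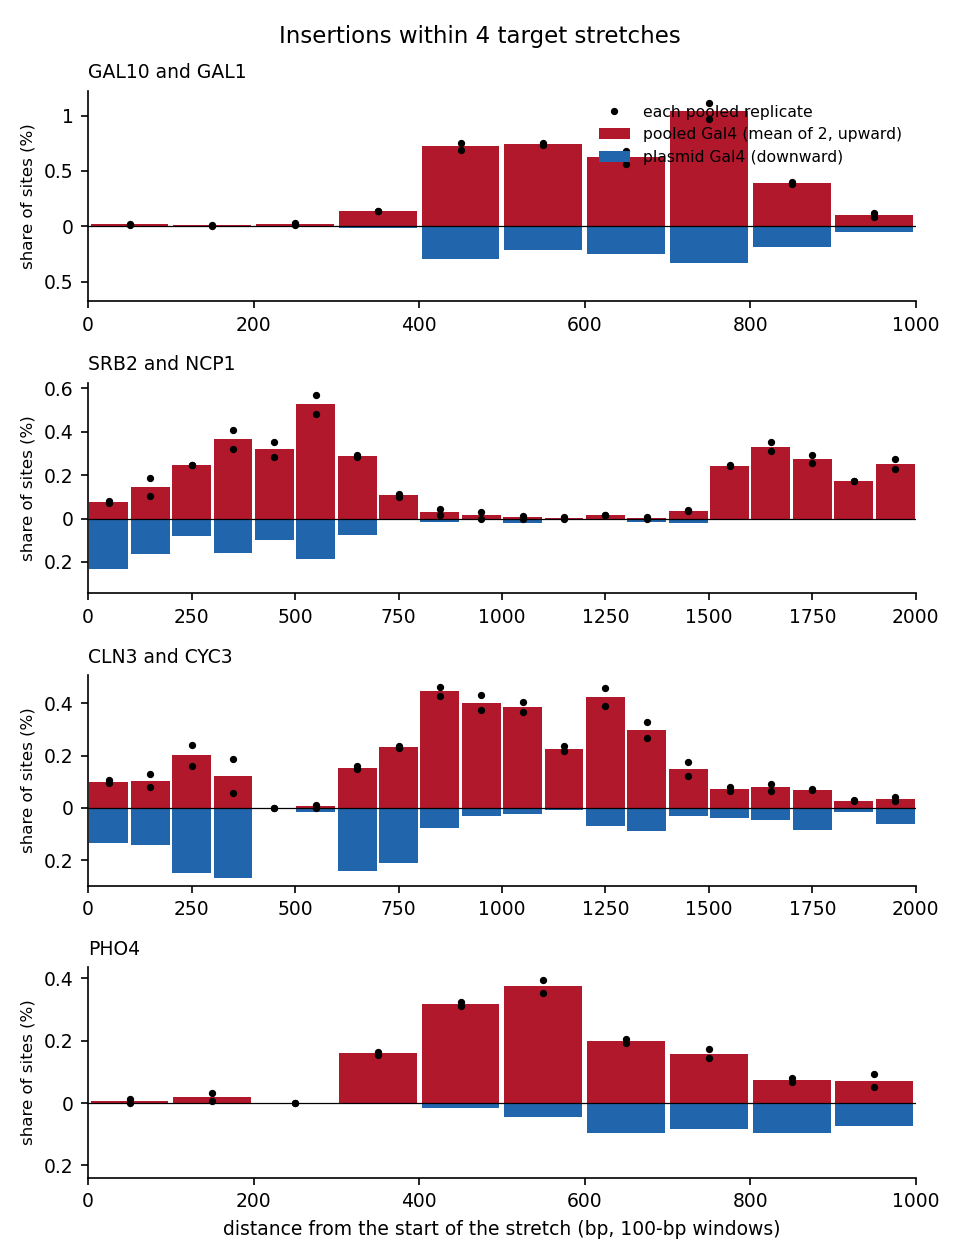
Share of insertion sites (%, vertical axis) per 100-bp window along 4 target stretches (horizontal axis, distance in bp from the start of the stretch), with the pooled Gal4 mean drawn upward, each pooled replicate as a point and plasmid Gal4 drawn downward. At GAL10 and GAL1 both settings fill the same windows, while from SRB2 to NCP1 the last 5 windows hold pooled insertions and 2 plasmid sites in all.

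In some of the strongest bins the median positions lay close together. The median insertion of the GAL10/GAL1 bin lay 639 and 638 bp from the start of the bin in the pool and 660 bp in the plasmid library, and that of GTO3 605 and 604 bp in the pool and 582 bp in the plasmid library. In the GAL2 bin the medians were 664 and 666 bp in the pool and 666 bp in the plasmid library. In the SRB2 bin they were farther apart, at 453 and 445 bp in the pool and 313 bp in the plasmid library, as they were in the CLN3 bin. Every one of the 5 windows with most pooled sites in the GAL10/GAL1 bin was larger in the pool, with 156 and 155 pooled sites and 45 plasmid sites in the fullest. In the GAL7 bin 3 windows were called larger and the last one, with 58 and 47 pooled sites and 34 plasmid sites, was not.

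The direction of insertion differed at few targets. Over all 114 target bins 49.4% of pooled and 50.5% of plasmid sites were in the plus direction. In 6 of the bins the split differed between the summed pooled libraries and the plasmid library (two-sided Fisher's exact test, adjusted over the 114 bins), and 19 passed an unadjusted p of 0.05. This test on summed sites covers counting error only and takes no account of the spread between libraries. At NAR1/LAP3 95.2% of pooled and 62.9% of plasmid sites were plus (adjusted p 0.0238). At RUP1 the plus share was 71.4% in the pool and 43.5% on the plasmid (adjusted p 0.0496), and near PSR2 it was 16.1% in the pool and 52.7% on the plasmid (adjusted p 0.0432). The remaining 3 bins were those of KTI12, YPR1 and RPL1B/PCL10. At KTI12 the pooled replicates themselves were uneven, with 80 plus and 113 minus sites in the first and 21 plus and 101 minus in the second, against 72 and 72 in the plasmid library. The 2 ways of listing positions bear on direction, and their part was not tested.

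Identical sites were more often shared between the replicates than across the settings. After the 3-bp difference in minus-strand positions was taken out, 47.3% of the target sites of the first pooled library were also in the second and 25.3% were in the plasmid library. Of the plasmid target sites 37.7% and 33.4% were found in the pooled libraries. The second pooled library held 9580 target sites and the plasmid library 7252, and the plasmid library lists 0 positions in both directions. These differences bear on the overlap, and their part was not tested. Outside the targets, sites of the pooled Gal4 libraries coincided with sites of the other fusions more often in their own pool. The first pooled library shared 36.3% of its other sites with the 7 other fusions of its own pool and 22.6% with those of the second pool, which held 134697 and 93513 sites. The second shared 24.9% with its own pool and 23.9% with the first. For the plasmid library these shares were 13.1% with the first pool and 10.9% with the second.

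Insertions at the leading bins of the other fusions were counted beside these results. The 10 leading bins of each of the 7 other fusions, without the Gal4 targets, made 60 bins. They held 2.32% (2.09 to 2.57) and 1.20% (1.03 to 1.40) of the pooled Gal4 sites, against 0.971% (0.812 to 1.15) of the plasmid sites and 1.96% of the Sir4-free sites. Of the 70 leading bins 42 could be tested and 2 were called larger in the pool, PHO4 for Sef1 and HSV2/AZR1 for Yrm1, beside 2.74% of all tested bins. The median log2 fold of the 42 was 0.74, against -0.16 over all tested bins. Bins such as PCL2, with 1 and 5 pooled sites and 0 plasmid sites, reached the limit of 5 sites through the pooled libraries alone. Fitted folds of bins with 0 plasmid sites also depend on the prior count, so this median is no result about the leading bins. For the 7 leading bins of the drug-resistance regulator Yrm1 the shares were 1.02% and 0.374% in the pool, against 0.239% on the plasmid. The replicates differed here, and the first pooled library alone lay above the Sir4-free share of the 60 bins.

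Other fusions had insertions in the called bins as well. In 17 of the 21 bins with a larger pooled Gal4 share the summed other fusions of the pools also had a larger share than the summed Leu3 and Gcn4 plasmid libraries, and in 4 of the 10 bins with a smaller one they had a smaller share. Over all 767 tested bins the other pooled fusions had the larger share in 449 (58.5%) and the smaller in 318 (41.5%). At GAL10/GAL1 the other pooled fusions had 219 sites (0.0876% of theirs) and the other plasmid libraries 5 sites (0.0145%). At GAL7 the values were 237 sites (0.0948%) and 22 sites (0.0638%). These levels are far below the 3.81% and 2.81% of the pooled Gal4 libraries. Their part in the Gal4 results was not tested.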

How the data were processed

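Per the series text and the labels, the deposited files give, for each chromosome, position and direction of a Ty5 insertion, the count of sequencing reads, without normalization by the authors. DNA was cut with Hinp1I, HpaII or TaqI in separate aliquots, self-ligated, amplified by inverse PCR and sequenced on an Illumina GAII. The labels name no aligner, genome build or read filter. Distinct sites were counted in 1-kb bins. Bins with at least 5 sites over the 3 Gal4 libraries (767) were fitted with edgeR 4.0.16 (R 4.3.3, limma 3.58.1; glmQLFit and glmQLFTest) on 17 libraries, the 16 multiplex libraries and plasmid Gal4, with 1 level per fusion and setting, library sizes equal to all distinct sites and no further scaling (biological coefficient of variation 0.0840, 8 residual degrees of freedom). Benjamini-Hochberg adjustment ran over every bin in the fit, with a threshold of 0.05. DESeq2 1.42.0 was an alternative. Counting and exact tests ran in scipy 1.17.1 and pandas 2.3.3 on numpy 2.4.6 (Python 3.11.15), and plots were drawn with matplotlib 3.10.9. Fitted folds of bins with 0 plasmid sites depend on the prior count and are not printed.

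A bin takes the names of genes that start inside it or up to 500 bp away (up to 900 bp for chromosome 11) and, failing that, of the nearest gene, in the R64 annotation, whose build differs from that of the data; none of its coordinates are printed. List genes were read in the bin with most sites within 600 bp upstream. The named bins are the 10 with the smallest p in each direction, the 10 with the largest mean share, those of the Gal4 list and up to 10 with the largest fold in each direction. The members and lists were chosen with earlier results of these data known. Bins and windows outside that rule were named after their values were seen.

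On simulated counts for the 767 bins of this comparison, the fit called 6 of 10 bins changed 2-fold and 13 of 13 changed 4-fold with at least 60 sites, 14 of 92 and 38 of 108 over all sizes, and 2 of 567 unchanged bins. The simulated plasmid library was given the same spread as the pooled libraries. These rates therefore do not check the assumption that the plasmid library varies as they do. Pool numbers mark a shared pool in the labels. In the 252 bins that held 160 or more sites over the multiplex, replicate differences (log2) of Gal4 correlated with those of the 7 other fusions with a median r of 0.104 (-0.0274 to 0.176), so a replicate block was tried as an alternative.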

Additional observations from a re-analysis of the deposited data

How the results depend on the processing

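The unscaled fit called 21 bins larger and 10 smaller in the pool, and in 3 alternatives the smaller calls outnumbered the larger ones. TMM factors, which moved the median log2 fold from -0.16 to 0.07, gave 38 larger (84.4% of calls). Scaling to the target sites gave 40 smaller (31.0% larger), sites with at least 2 reads 38 smaller (38.7% larger) and sites with at least 5 reads 43 smaller (32.8% larger). DESeq2 called 12 larger and 2 smaller. Bins with at least 10 sites gave 33 larger and 18 smaller, no filter gave 5 smaller, the replicate block 16 smaller and 100-bp windows 68 larger. Leaving out a pooled replicate gave 22 to 23 larger and 6 to 7 smaller. Of the 10 bins called smaller, DESeq2 kept 2, no filter 5, TMM 7 and leaving out a replicate 5 to 7. The ratio of target shares, 1.26, was 1.21 with at least 2 reads per site, 1.20 without direction, 1.13 with reads in place of sites, and 1.24 to 1.27 when a replicate was left out. With at least 5 reads per site the target shares were 72.3% and 73.7% in the pool, against 57.2% in the plasmid library. With bins moved by 500 bp they were 65.5% and 66.7% in the pool, against 53.4% in the plasmid library. Among the called bins that the text names, HSV2/AZR1 reversed, at -0.25 with at least 5 reads per site. The uncalled bins of FUR4, GAL80 and PGM2 also changed sign: with scaling to the targets they stood at -0.04, -0.15 and -0.10, FUR4 and GAL80 stood at -0.50 and -0.36 with at least 5 reads per site, and PGM2 at -0.09 without the second replicate. The cause was not tested. The block ended the calls at GTO3 and GAL2 (adjusted p 0.0552 each). Limits are the single plasmid library, the sugar that is not given per library, the different listing of positions, and depth: 1 to 3 plasmid sites in a bin leave wide counting intervals, and few of the simulated 2-fold changes were called in bins with few sites.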
